A study of Homo sapiens with 2 samples.

Results

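The class I phosphoinositide 3-kinases (PI3K), their regulatory subunits, the AKT kinases and the adaptor IRS1 were described in 2 tumours, as the 8 genes PIK3CA, PIK3CB, PIK3CD, PIK3R1, PIK3R2, AKT1, AKT2 and IRS1. They were taken by symbol from a table of 29972 human genes, and all 8 were found. Of these, 7 had at least 1 CPM (reads scaled to a common library size) in the higher library and are called described below, as were 14167 genes in all. PIK3CD fell short of that level in both tumours.

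Both tumours were xenografts of NCI-N87, an established line of human gastric carcinoma cells that carries an amplified ERBB2 gene (HER2), implanted under the skin of nude mice. The T-DM1-refractory tumour came from a mouse given T-DM1, an antibody against HER2 that carries a microtubule poison, every 3 weeks over 18 weeks, and the other tumour had no treatment. Each group was a single tumour and a single library of polyadenylated RNA, so no difference has a replicate check and none was tested across samples. The hosts lack mature T cells, and the table lists human genes. How mouse reads were kept apart from human ones is not stated in the labels, and a part of host reads in these counts was not tested.

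The refractory library held 59902704 expected counts and the untreated library 75722117, with 13228 and 13613 genes at 1 CPM or more. All 8 of the fixed epithelial markers (EPCAM, CDH1, KRT8, KRT18, KRT19, CLDN4, CLDN7 and ELF3) were described, with 0 past 2-fold in either direction and a summed level of 6457 CPM in the refractory and 7689 CPM in the untreated tumour. Intervals below are exact 95% intervals of Poisson or binomial counts. They take in the error of counting and nothing else, since PCR copies of a molecule were not marked and could be counted more than once. In RNA from whole tumours, fewer cells of a type and less RNA per cell cannot be told apart.

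As background, a class IA PI3K is a dimer of a catalytic and a regulatory subunit. The regulatory subunit docks on phosphorylated tyrosines of receptors such as ERBB3 or of adaptors such as IRS1, and the catalytic subunit then makes the membrane lipid PIP3. PIP3 recruits AKT, which is activated there and phosphorylates targets that promote growth and survival, among them regulators of mTOR and the FOXO transcription factors. In cells with amplified ERBB2, the ERBB2 and ERBB3 pair is known as a strong input to this pathway.

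The clearest difference among the members was between the catalytic isoforms. PIK3CB, the beta isoform, which can also be driven by G protein-coupled receptors, was more than 2-fold higher in the refractory tumour, while PIK3CA, the alpha isoform and the one most often mutated in carcinomas, stood slightly lower. Both regulatory genes stood lower, AKT1 and AKT2 stood close to their untreated levels, and IRS1 was at about the 2-fold line below.

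**Figure D1:**
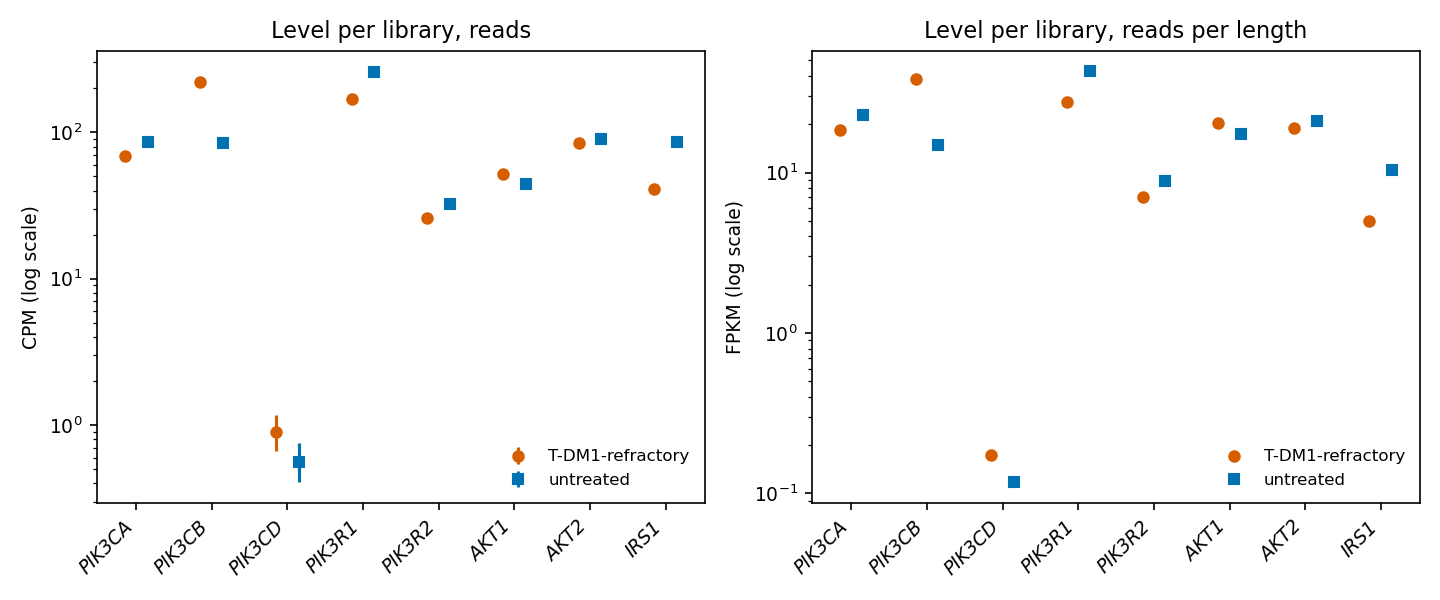
Level of each member in the T-DM1-refractory (circles) and untreated (squares) tumour, 1 library each, as CPM with exact 95% Poisson intervals (left) and as the authors' FPKM, reads per length (right), both on log axes. PIK3CB stands higher in the refractory tumour (222 against 84.3 CPM), IRS1 and PIK3R1 stand lower, and PIK3CD lies far under the rest in both.

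Among the catalytic subunits, PIK3CB (chromosome 3, coding span 138655389 to 138707275 on GRCh38) stood at 222 CPM in the refractory and 84.3 CPM in the untreated tumour, from 13173 and 6449 reads. The ratio was 2.63 (95% interval 2.55 to 2.71). After adding 1 CPM to both levels, the scale used for all calls, its log2 difference was 1.39, above that of 94.8% of the 14167 described genes. PIK3CA (chromosome 3, 179198826 to 179234364) stood at 68.9 CPM in the refractory and 85.9 CPM in the untreated tumour, a ratio of 0.802 (95% interval 0.771 to 0.834). The members of this pair on the same chromosome therefore lay on opposite sides of no difference, and counting error alone does not bridge the gap. In GENCODE 29, 3403 of the 9494 exonic bases of PIK3CA overlap exons of KCNMB3, a potassium channel subunit gene on the opposite strand. The authors' FPKM imply a shorter length for PIK3CA, about 3735 bases in the refractory and 3782 in the untreated library. How much of the overlap entered the counts is not known. KCNMB3 held 1013 reads in the refractory and 1537 in the untreated library, counted with a strand setting not given in the sources used here.

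PIK3CD, the delta isoform, is best known from leukocytes. It had 53 reads in the refractory and 43 in the untreated library (chromosome 1, 9710456 to 9727046), which is 0.893 and 0.562 CPM, a ratio of 1.59 with a 95% interval of 1.04 to 2.43. Of its exonic bases, 89 overlap those of CLSTN1 on the opposite strand, a gene with 13338 reads in the refractory and 13137 in the untreated library, so counts as low as those of PIK3CD cannot be told apart from reads of that neighbour. Of 11 leukocyte markers 6 were described, with 3 higher and 2 lower in the refractory tumour, beside 9.80% and 11.0% of all described genes. The summed level of the 11 was 131 against 43.5 CPM, most of it lysozyme, LYZ (95.9 against 27.2 CPM). The myeloid markers CD68 (29.2 against 3.62 CPM) and ITGAM (3.32 against 0.419 CPM) were also higher, and CORO1A (0.927 against 8.97 CPM) and LCP1 (0 against 2.80 CPM) were lower. ITGAM was described through the refractory library alone, and CORO1A and LCP1 through the untreated library alone. CD3E, MS4A1 and SPI1 had 0 reads in both libraries, and PTPRC, the common leukocyte antigen, had 17 in the refractory and 5 in the untreated one. CD14 stood at 1.43 against 0.445 CPM and CSF1R at 0.0506 against 0 CPM. The tumours grew from a carcinoma line in mice, so leukocytes in them would be of the host, while the genes counted are human. Whether reads of these markers or of PIK3CD came from the line or from host cells was not tested.

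Because the catalytic genes differ in transcript length, their shares are given first per length (FPKM) and then as shares of reads. Per length, PIK3CB made up 67.5% of the summed FPKM of the catalytic isoforms in the refractory tumour and 39.2% in the untreated tumour. PIK3CA made up 32.2% in the refractory and 60.5% in the untreated tumour, and PIK3CD 0.305% and 0.310%. The leading catalytic transcript was thus PIK3CB in the refractory tumour and PIK3CA in the untreated tumour. In reads, PIK3CB held 76.1% (95% interval 75.4 to 76.7) in the refractory against 49.4% (48.5 to 50.2) in the untreated tumour, 26.7 percentage points more. PIK3CA held 23.6% (23.0 to 24.3) in the refractory and 50.3% (49.4 to 51.2) in the untreated tumour.

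The balance of this pair can be stated without any library scaling. The FPKM of PIK3CB was 2.09 times that of PIK3CA in the refractory tumour and 0.648 times in the untreated tumour. From the reads, that within-library ratio was 3.28 times as large in the refractory tumour (95% interval 3.12 to 3.45 by a normal approximation on 4 Poisson counts). The summed catalytic level was 292 CPM in the refractory and 171 CPM in the untreated tumour, a ratio of 1.71 (95% interval 1.67 to 1.75). PIK3CB accounts for the higher sum, since PIK3CA was lower.

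**Figure D2:**
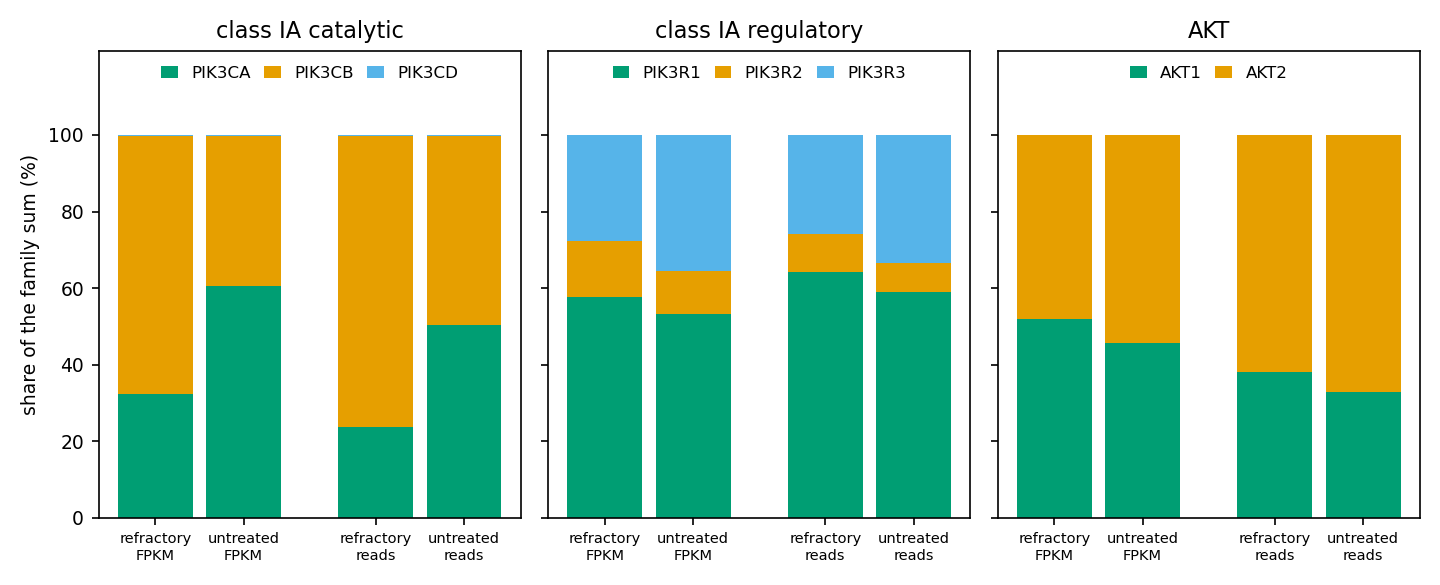
Share of each gene in the summed level of its family, in percent, for the class IA catalytic, class IA regulatory and AKT genes, from the authors' FPKM (left pair of bars in each panel) and from reads (right pair), refractory before untreated. PIK3CB takes the larger catalytic share in the refractory tumour on both scales, AKT1 takes 51.9% of the FPKM of its pair in the refractory and 45.5% in the untreated tumour, and PIK3R3 is shown beside the members of its family.

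The regulatory subunits differed the other way. PIK3R1, the alpha regulatory gene, which encodes several isoforms that stabilise and restrain the catalytic subunit, stood at 170 CPM in the refractory and 258 CPM in the untreated tumour (chromosome 5, 68226676 to 68297601). Its ratio was 0.659 (95% interval 0.643 to 0.675), and its log2 difference of -0.60 did not reach 2-fold. PIK3R2, the beta regulatory gene (chromosome 19, 18155880 to 18169294), stood at 26.2 CPM in the refractory and 32.5 CPM in the untreated tumour, a ratio of 0.804 (95% interval 0.755 to 0.857). In GENCODE 29, 3947 of its 4524 exonic bases are shared with AC007192.1, an overlapping gene on the same strand. The genes counted do not include that symbol. Between the pair, PIK3R1 held 79.7% of the FPKM in the refractory and 82.8% in the untreated tumour, a difference of -3.09 percentage points.

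PIK3R3, the gamma regulatory gene, is not one of the 8 members but belongs to the same family and was lower past 2-fold, at 68.3 CPM in the refractory and 146 CPM in the untreated tumour (ratio 0.468, 95% interval 0.451 to 0.485). With it in the family sum, the direction for PIK3R1 is the opposite: 57.6% of the FPKM in the refractory and 53.3% in the untreated tumour. The direction of the PIK3R1 share therefore depends on whether PIK3R3 is counted, while its level was lower either way. All 3 regulatory genes together stood at 264 CPM in the refractory and 436 CPM in the untreated tumour, a ratio of 0.606 (95% interval 0.594 to 0.617).

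Per length, the regulatory to catalytic balance of transcripts was on opposite sides of 1 in the 2 libraries. The summed FPKM of PIK3R1, PIK3R2 and PIK3R3 was 0.845 times that of the catalytic genes in the refractory tumour, and 2.11 times in the untreated tumour. With PIK3R1 and PIK3R2 only, these values were 0.611 in the refractory and 1.36 in the untreated tumour. PIK3R1 alone had 0.722 times the FPKM of PIK3CB in the refractory tumour, against 2.87 times in the untreated tumour. These are ratios of mRNA, and subunit protein was not measured.

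Among the AKT kinases, AKT1, the broadly expressed isoform, stood at 51.9 CPM in the refractory and 44.2 CPM in the untreated tumour (chromosome 14, 104770341 to 104792643), a ratio of 1.17 (95% interval 1.12 to 1.23). AKT2, the isoform best known for its part in insulin signalling, stood at 83.9 CPM in the refractory and 90.5 CPM in the untreated tumour (chromosome 19, 40233872 to 40255258), a ratio of 0.926 (95% interval 0.893 to 0.961). The summed level of the pair was nearly equal, at 135.8 and 134.8 CPM, a ratio of 1.01 (95% interval 0.978 to 1.04). Within it, AKT1 held 51.9% of the FPKM in the refractory and 45.5% in the untreated tumour, so the larger per-length share was that of AKT1 in the refractory tumour and that of AKT2 in the untreated tumour. Their small opposite differences lie outside counting error, but the spread between tumours of 1 group is unknown here and differences of this size cannot be set against it.

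IRS1 is the docking adaptor that links the insulin and IGF1 receptors to PI3K. It stood at 41.3 CPM in the refractory and 85.4 CPM in the untreated tumour (chromosome 2, 226795010 to 226798738), a ratio of 0.484 (95% interval 0.461 to 0.507). Its log2 difference of -1.03 was just past the 2-fold line. With 5 CPM added in place of 1 it was not past the line (-0.97), nor on FPKM with 1 FPKM added (-0.92). With nothing added, the FPKM ratio of IRS1 was 0.482, which is past 2-fold. Of its relatives, IRS2 was listed with 0 reads in both libraries, and IRS4 with 0 in the refractory and 2 in the untreated one. Whether reads of IRS2 were lost in the authors' counting is not known. The floor for a count of 0, taken as 3 reads, is 0.0506 CPM in the refractory and 0.0392 CPM in the untreated library. The receptors that IRS1 serves differed less than IRS1, with IGF1R at 109 CPM in the refractory and 133 CPM in the untreated tumour and INSR at 17.6 and 21.2 CPM.

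Of the 7 described members, 1 was higher past 2-fold (PIK3CB) and 1 lower (IRS1), where 9.80% of all described genes were higher and 11.0% lower, 20.8% in either direction. A count of 1 each way among 7 is close to those shares and is no result about the members as a group. Their median log2 difference was -0.30, against 0.03 for all described genes. The authors' deposited table sets these libraries against each other with no replicate. Its log2 fold changes were 1.40 for PIK3CB and -1.05 for IRS1. Its p-values rest on 1 library per group and are not read here.

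Per length the order of the members differed between the tumours. In the refractory tumour it ran from PIK3CB (38.3 FPKM) over PIK3R1 (27.6), AKT1 (20.4), AKT2 (18.9) and PIK3CA (18.3) to PIK3R2 (7.05), IRS1 (5.01) and PIK3CD (0.173). In the untreated tumour it ran from PIK3R1 (42.8 FPKM) over PIK3CA (22.9), AKT2 (20.9), AKT1 (17.5) and PIK3CB (14.9) to IRS1 (10.4), PIK3R2 (8.91) and PIK3CD (0.117). PIK3CB thus held the first place in the refractory and the fifth in the untreated tumour. With 1 library a group there is no spread to separate neighbours in either order, such as AKT2 and PIK3CA in the refractory tumour.

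The members lie on 6 chromosomes, and the genes next to them did not differ alike. For each, the 7 described genes on either side were taken as neighbours, 14 in all. A neighbour under 1 CPM in one library was described only because it was higher in the other, so the counts below are over neighbours at 1 CPM or more in both libraries, a restriction chosen after the values were seen. Around PIK3CB 12 remained, with 9 above 0, 0 past 2-fold in either direction and a median log2 difference of 0.48. PIK3CB at 1.39 was above every one of them, the highest being NMNAT3 at 0.9999, which just missed the 2-fold line, and the nearest, FAIM and MRPS22, were at -0.12 and 0.62. Around PIK3CA all 14 remained, with a median of -0.09 and the nearest genes ZMAT3 at -0.22 and KCNMB3 at -0.22, beside its own -0.31. Around IRS1, itself at -1.03, 11 remained, of which 1 was higher and 0 lower past 2-fold (median 0.28).

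At PIK3CD all 14 neighbours remained, of which 13 were above 0 and 7 past 2-fold higher (median 1.03). Over all described genes, which include some under 1 CPM in 1 library, 9.80% were higher and 11.0% lower. The log2 difference of PIK3CD itself was 0.28. As PIK3CD lay under 1 CPM in both libraries, the 1 CPM added draws this value toward no difference. With 0.1 CPM added it was 0.58, and the plain ratio was 1.59. At PIK3R2 9 remained, of which 8 were below 0 and 1 past 2-fold lower (median -0.61), and its own was -0.30. Around PIK3R1, AKT1 and AKT2 the medians were 0.10, 0.18 and 0.16, over 12, 11 and 12 genes. The copy number of these segments was not measured.

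**Figure D3:**
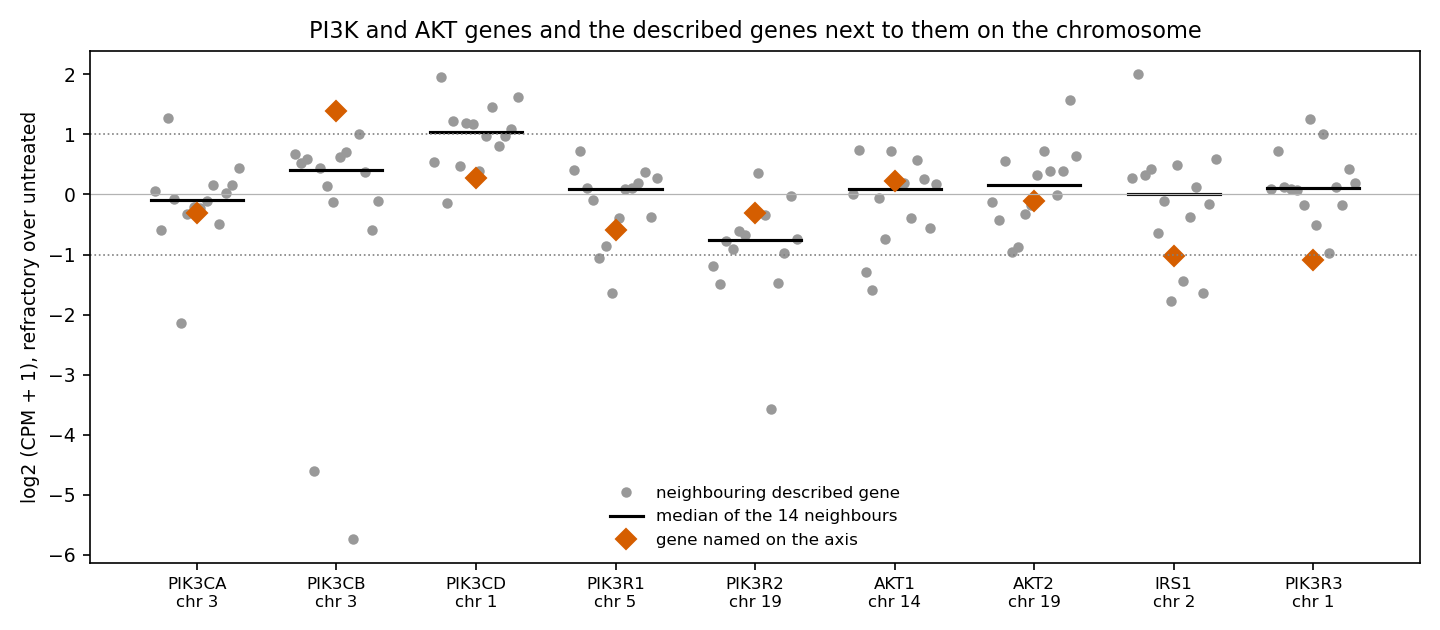
Log2 difference, refractory over untreated with 1 CPM added, of each member and of PIK3R3 (diamonds), with the 14 nearest described genes on the chromosome in order (grey points) and the median of all 14 (bar), among them genes under 1 CPM in 1 library. Dotted lines mark 2-fold. PIK3CB lies above all its neighbours, and 13 of the 14 neighbours of PIK3CD are above 0.

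The rest of the pathway was described by 6 lists grouped by role, with 90 genes, of which 81 were described. In all 11 were higher and 8 lower past 2-fold, with a median log2 difference of -0.01, and these counts are likewise near the shares over all described genes (9.80% and 11.0%). Inputs to PI3K differed gene by gene. Of 11 described receptors and adaptors, 2 were higher and 1 lower (median 0.00). ERBB2 stood at 7975 CPM in the refractory and 7267 CPM in the untreated tumour, its partner ERBB3, whose tail binds the regulatory subunits, at 453 and 265 CPM, and EGFR at 61.7 and 193 CPM (ratio 0.319, 95% interval 0.308 to 0.331).

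The higher genes were both adaptors. GRB14, which binds and inhibits the insulin receptor, stood at 24.96 CPM in the refractory and 2.88 CPM in the untreated tumour, a ratio of 8.68 (95% interval 7.52 to 10.04). GRB10, its relative with a like role, stood at 88.7 and 17.8 CPM, a ratio of 4.99 (95% interval 4.70 to 5.30). GAB1, an adaptor of other receptors, stood at 101 CPM in the refractory and 67.8 CPM in the untreated tumour and was not past 2-fold.

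Of 8 described genes for other PI3K subunits and their regulators, 0 were higher and 3 lower past 2-fold (median -0.64), where 11.0% of all described genes were lower. PIK3C2G, a class II catalytic gene best known from liver, stood at 4.30 CPM in the refractory and 130 CPM in the untreated tumour, which was 30.2 times as high (95% interval 26.7 to 34.3). PIK3AP1, an adaptor best known from B cells, stood at 5.19 and 12.1 CPM. The class II relatives PIK3C2A and PIK3C2B and the class III catalytic gene PIK3C3 were not past 2-fold, and PIK3R4, the class III regulatory gene, stood at 101 CPM in the refractory and 69.1 CPM in the untreated tumour, a ratio of 1.46 (95% interval 1.40 to 1.51). PIK3CG, the class IB catalytic gene, had 4 reads in the refractory and 1 in the untreated library, and its partners PIK3R5 and PIK3R6 had 0 or 1.

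The list of lipid and protein phosphatases had 0 higher and 1 lower of 13 described (median -0.34), beside 9.80% and 11.0% of all described genes. INPP4B, which removes a phosphate from a lipid downstream of PI3K, stood at 60.5 CPM in the refractory and 76.7 CPM in the untreated tumour, a ratio of 0.789 (95% interval 0.756 to 0.822), and was not past 2-fold. INPP5J, an inositol phosphatase, stood at 0.523 CPM in the refractory and 6.49 CPM in the untreated tumour and was the 1 gene of the list past it. INPP5J was described through the untreated library alone, with 31 reads in the refractory and 496 in the untreated one.

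Kinases beside AKT split 2 higher and 1 lower of 9 (median 0.18), against 9.80% and 11.0% of all described genes. The SGK kinases, relatives of AKT activated by the same upstream kinase, went both ways. SGK2 stood at 50.5 CPM in the refractory and 4.90 CPM in the untreated tumour, a ratio of 10.3 (95% interval 9.25 to 11.5), whereas SGK1 stood at 13.6 and 40.7 CPM, a ratio of 0.333 (95% interval 0.308 to 0.360). SGK3 was nearly level at 11.0 and 11.5 CPM. ILK, an adaptor at integrins, stood at 60.8 CPM in the refractory and 29.4 CPM in the untreated tumour. PDPK1, the kinase that activates AKT, stood at 139 and 115 CPM.

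The mTOR list had 4 higher and 1 lower of 21 described (median 0.27), beside 9.80% and 11.0% of all described genes. DEPTOR, which binds and inhibits mTOR, stood at 17.0 CPM in the refractory and 3.23 CPM in the untreated tumour. DDIT4, a stress-induced inhibitor of the pathway that is also a hypoxia gene, stood at 136 and 62.8 CPM, TBC1D7, a subunit of the TSC complex, at 21.3 and 8.61 CPM, and the translation repressor EIF4EBP3 at 2.21 and 0.157 CPM, from 131 and 12 reads, described through the refractory library alone. Other restraints in the list were not past 2-fold and went both ways. TSC1 stood at 104 and 138 CPM, EIF4EBP2 at 269 and 334 CPM and AKT1S1 at 38.3 and 41.6 CPM. TSC2 stood at 76.6 and 51.8 CPM and EIF4EBP1 at 8.07 and 3.94 CPM, the latter a ratio of 2.05 before 1 CPM was added. PRR5L, a partner of the second mTOR complex, was the lower one, at 5.75 CPM in the refractory and 18.7 CPM in the untreated tumour. MTOR itself stood at 119 and 65.0 CPM and did not reach 2-fold.

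FOXO factors and genes known as FOXO targets, which AKT activity represses through FOXO, had 3 higher and 1 lower of 19 described (median 0.19). The shares over all described genes were 9.80% and 11.0%. SESN3, a sestrin that restrains mTOR, stood at 14.3 CPM in the refractory and 477 CPM in the untreated tumour, which was 33.3 times as high (95% interval 31.1 to 35.7). Its relative SESN1 stood the other way, at 82.6 and 29.2 CPM. KLF6, a transcription factor, stood at 597 CPM in the refractory and 149 CPM in the untreated tumour, and PINK1, a mitochondrial kinase, at 37.1 and 13.5 CPM. The other 15 described genes of the list were not past 2-fold and lay on both sides of no difference, such as TNFSF10 (44.6 CPM in the refractory and 67.8 CPM in the untreated tumour), TXNIP (730 and 898 CPM), CDKN1B (76.9 and 79.1 CPM), GADD45A (75.9 and 50.5 CPM) and PDK4 (9.19 and 4.88 CPM).

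**Figure D4:**
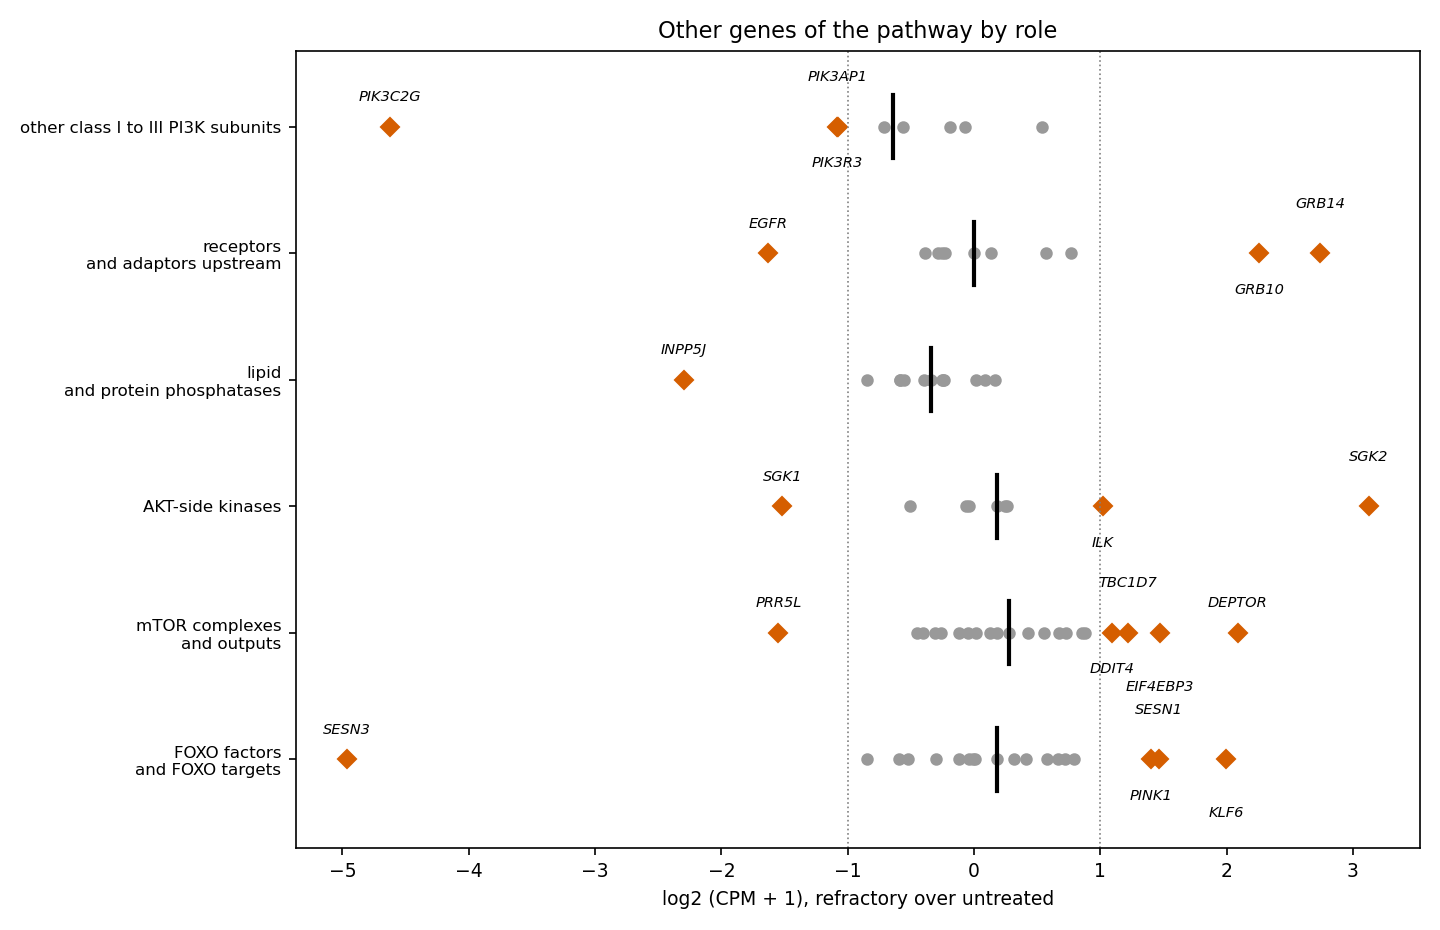
Log2 difference, refractory over untreated with 1 CPM added, of the 81 described genes of the 6 pathway lists, 1 row per list. Diamonds with names are past 2-fold (dotted lines), grey points are not, and bars are list medians. SESN3 and PIK3C2G lie farthest to the lower side, and SGK2, GRB14 and GRB10 farthest to the higher side.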

How the data were processed

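Polyadenylated RNA of 1 T-DM1-refractory and 1 untreated tumour was compared, grouped by the treatment labels. The authors deposited 1 table with expected counts (estimated reads per gene, 93.2% of values exactly whole in the refractory and 92.8% in the untreated library), FPKM values (reads scaled by length and library size, per the file headers), a log2 fold change and a p-value per gene. The submitters' processing notes name STAR 2.7.0e, RSEM 1.2.28, edgeR 3.26.8, GRCh38 and GRCm38. The use made of each tool, the annotation, the strand setting and any filter were not given in the sources used here.

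Counts were rounded and scaled by TMM (edgeR 4.0.16 in R 4.3.3). Differences are log2 ratios, refractory over untreated, with 1 CPM added to both levels, called at 2-fold among genes with 1 CPM or more in the higher library. No test across samples was possible. Ratios and shares carry Clopper-Pearson 95% intervals. The code was checked on simulated Poisson counts with known folds. Those hold no spread between tumours and no PCR copies, so the check does not bear on either. Coding spans are the deposited ones, with the start counted from 1. Exon overlaps come from GENCODE 29. The higher end of the deposited PIK3CB span was not found among the coding exon ends of that gene there. The table lists some genes under older symbols, and all 90 pathway genes were matched.

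Named genes are the 8 members, every gene of the 6 lists past 2-fold, INPP4B, PIK3R3, ERBB2, ERBB3 and the nearest neighbours. Some genes under these rules are not reported here and were left out of the lists. Further genes were picked with their values in view. The members and lists were chosen with earlier results of these data known. Other scalings, added constants, filters, fold thresholds, FPKM and family definitions were tried.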

Additional observations from a re-analysis of the deposited data

How the results depend on the processing

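PIK3CB stayed higher and past 2-fold under total-count, median-of-ratios and top-gene-free scaling. The same held with 0.1 or 5 CPM added and on FPKM with 1 FPKM added (log2 1.31 to 1.40 over these settings). Over the same settings IRS1 ranged from -1.06 to -0.92. The members lower past 2-fold thus numbered 0 with 5 CPM added and 0 on FPKM with 1 FPKM added. At 1.5-fold 2 members were lower, and at 4-fold 0 were higher and 0 lower. The pathway genes past the line numbered 19 higher and 14 lower at 1.5-fold, and 4 and 3 at 4-fold. Over all described genes the counts were 821 higher and 840 lower with 5 CPM added, 2755 and 2677 at 1.5-fold, 360 and 504 at 4-fold, and 921 lower with a 10 CPM filter.

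On FPKM the share of PIK3CB differed by 28.3 points and that of PIK3CA by -28.2 points, refractory minus untreated. In reads, with PIK3R3 counted in the family, the difference was 5.17 points for PIK3R1, the opposite sign to the comparison among members. The ratio of PIK3R3 was 0.468 and that of PIK3R1 0.659. The wider family was not run for the AKT genes. The median over neighbours at 1 CPM in both libraries, an alternative chosen after seeing the data, was within 0.1 of that over all 14 except at PIK3R2 (-0.61 against -0.76), IRS1 (0.28 against 0.00) and PIK3C2G (0.04 against -0.999). No paired analysis was possible because each group has 1 library. At 53 and 43 reads the level of PIK3CD is limited by depth.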

Other observations

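Around PIK3C2G, a gene singled out after its values were seen, 9 of the 14 described neighbours on chromosome 12 had 1 CPM or more in both libraries. Of these 9, 2 were lower and 1 was higher past 2-fold (median log2 difference 0.04). Over all 14, 7 were lower and 1 higher, and 5 of the 14 were described through the untreated library alone. Of all described genes, which likewise include genes under 1 CPM in 1 library, 11.0% were lower and 9.80% higher. That share was not taken over genes at 1 CPM in both libraries. Organic anion transporter genes of the SLCO1B group, best known from liver, lie among the 14. SLCO1B3 stood at 8.90 CPM in the refractory and 128 CPM in the untreated tumour, SLCO1B1 at 0.169 and 24.4 CPM, and SLCO1B7 at 0.775 and 26.0 CPM, both SLCO1B1 and SLCO1B7 being described through the untreated library alone, although the sequences of this group are alike and reads may have been split among its genes. EPS8, an adaptor of receptor kinases, stood at 257 CPM in the refractory and 66.0 CPM in the untreated tumour.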
